A study of Homo sapiens with 12 samples.

Results

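MHC class I molecules show peptides from inside the cell to T cells. The 9 genes described here encode parts of that machinery: the heavy chains HLA-B, HLA-C, HLA-E and HLA-F, the light chain B2M, the loading proteins TAP1, TAP2 and TAPBP, and the transactivator NLRC5. They were chosen by name as the rows of the deposited count table that carry these symbols, 9 of 35984 genes. The members and the lists below were chosen with earlier results of these data known, so counts set against all genes are descriptions. All 9 were listed, and 8 had enough counts to be tested, the exception being HLA-F.

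The libraries came from HepG2, an established human hepatoma cell line, and RNA was sequenced in 12 libraries, 3 in each of 4 groups. DKD cells (double knock-down) carry shRNAs that target macroH2A1 and macroH2A2, both histone H2A variants, and CTL cells carry control shRNAs. Both lines were made by stable retroviral integration, and the labels do not say whether a line is a clone or a pool. Per the labels, TNFα, an inflammatory cytokine, was given at 20 ng/mL for 24 h to cells kept overnight in low serum, and untreated cells received the vehicle for as long. The groups were therefore DKD with TNFα, DKD untreated, CTL with TNFα and CTL untreated. With 1 line of each kind, the knock-down and any other difference between the lines cannot be told apart.

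In the class I pathway, peptides cut by the proteasome are pumped into the endoplasmic reticulum by the TAP1 and TAP2 pair. Tapasin, the product of TAPBP, holds the empty heavy chain with B2M beside the pump until a peptide fits. Interferons and TNFα are known to raise these genes through IRF and NF-κB sites near their promoters, and NLRC5 acts on the same promoters together with the RFX and NF-Y factors. Hepatocytes are known for low class I levels at rest.

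The libraries held between 30955080 and 42094144 counts, and a single count stood for 0.0238 to 0.0320 CPM (counts per 1e6 of the TMM-scaled library size). The knock-down was visible in its targets: MACROH2A1 averaged 55.5 ± 10.1 CPM in DKD cells with TNFα and 268 ± 11.0 CPM in CTL cells with TNFα (SD, n = 3 each), and MACROH2A2 averaged 3.96 ± 0.68 CPM and 46.4 ± 5.09 CPM in the same groups. Untreated, MACROH2A1 averaged 46.2 ± 12.2 CPM in DKD cells and 236 ± 27.4 CPM in CTL cells, and MACROH2A2 averaged 5.11 ± 0.79 CPM in DKD cells and 57.8 ± 2.85 CPM in CTL cells. The replicate 1 libraries of DKD cells stood apart on the first principal component, which held 33.0% of the variance: the library with TNFα scored 53.9 and the untreated one 83.7, while the other 10 scored between -41.5 and 18.2. All 10 hepatocyte markers were detected, with a summed level of 21265 to 28537 CPM in DKD cells with TNFα, 28638 to 43071 CPM in untreated DKD cells, 17870 to 19919 CPM in CTL cells with TNFα and 22563 to 24633 CPM in untreated CTL cells. Markers of lymphocytes summed to between 0.301 and 1.27 CPM, and 2 of the 6, CD3E and MS4A1, were at 0 in all 12 libraries.

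Levels per kilobase of transcript set B2M first and HLA-C second among the members in every group. In untreated CTL cells B2M stood at 138 ± 11.7 CPM per kb and HLA-C at 59.1 ± 9.50 CPM per kb (SD, n = 3). They were followed by HLA-E at 24.6 ± 0.708 CPM per kb and TAPBP at 15.2 ± 0.540 CPM per kb. TAP1 at 7.58 ± 0.533 and TAP2 at 7.39 ± 0.838 CPM per kb overlapped and could not be put in order. HLA-B followed at 0.651 ± 0.0672 CPM per kb. HLA-F at 0.0558 ± 0.0313 and NLRC5 at 0.0354 ± 0.00622 CPM per kb closed the order and also overlapped. Untreated DKD cells kept this order, with TAP1 at 9.31 ± 0.327 CPM per kb clear of TAP2 at 6.49 ± 0.0309. With TNFα, TAPBP, at 43.1 ± 4.06 CPM per kb in DKD cells and 44.6 ± 1.92 in CTL cells, stood above HLA-E, at 28.5 ± 2.15 in DKD cells and 27.6 ± 3.54 in CTL cells. TAP1, at 17.8 ± 0.949 CPM per kb in DKD cells and 15.4 ± 0.533 in CTL cells, stood clear of TAP2 in both lines, at 6.85 ± 0.234 in DKD cells and 7.25 ± 0.682 in CTL cells. Lengths are those of the longest coding transcript of each gene in GENCODE, so levels of genes that use shorter forms are understated.

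The members lie in the MHC region of chromosome 6 (GRCh38), apart from B2M on chromosome 15 and NLRC5 on chromosome 16. TAPBP spans chr6:33299694-33314387, TAP1 chr6:32845209-32853978, TAP2 chr6:32821833-32838780 and B2M chr15:44711487-44718877. HLA-C spans chr6:31268749-31272130, HLA-E chr6:30489467-30494205, HLA-F chr6:29722775-29738528 and NLRC5 chr16:56989485-57083531. TAP1 overlaps PSMB9, an immunoproteasome subunit gene, on the opposite strand. The most upstream RefSeq start of TAP1 lies 488 bases from the nearest start of PSMB9. HLA-B and HLA-C share 2640 bases on the same strand in this annotation, which gives HLA-B a span of chr6:31269491-31357188. Reads of such similar genes can be split between them or lost to a pseudogene during quantification, so the HLA-B and HLA-C values carry that uncertainty.

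The 250 bases before the RefSeq start (GRCh38.p14) are shown for 6 members, because cytokines are known to act on this family through sites in such windows. They are the reference sequence and not the alleles of HepG2. Capitals mark a match to the core of the interferon-stimulated response element (ISRE), GAAANNGAA, or to the NF-κB letters GGGNNTTCC or GGGNNTTTC, on either strand and with overlapping matches merged. Each runs 5′ to 3′ along the strand of the gene, and all but B2M lie on the minus strand. The windows are chr6:33314079-33314328 for TAPBP, chr6:32853705-32853954 for TAP1, chr15:44711267-44711516 for B2M, chr6:31357180-31357429 for HLA-B, chr6:31272093-31272342 for HLA-C and chr6:32838740-32838989 for TAP2.
TAPBP: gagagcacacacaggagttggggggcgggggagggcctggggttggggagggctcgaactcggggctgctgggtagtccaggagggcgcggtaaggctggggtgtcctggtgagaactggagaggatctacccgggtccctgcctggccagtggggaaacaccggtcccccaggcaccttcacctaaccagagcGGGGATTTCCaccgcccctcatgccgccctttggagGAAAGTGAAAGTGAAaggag
TAP1: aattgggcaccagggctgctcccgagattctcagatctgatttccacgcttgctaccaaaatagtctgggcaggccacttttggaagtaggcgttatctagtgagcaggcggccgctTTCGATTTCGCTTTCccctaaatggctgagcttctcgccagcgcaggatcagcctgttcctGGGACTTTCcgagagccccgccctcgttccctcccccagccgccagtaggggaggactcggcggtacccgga
B2M: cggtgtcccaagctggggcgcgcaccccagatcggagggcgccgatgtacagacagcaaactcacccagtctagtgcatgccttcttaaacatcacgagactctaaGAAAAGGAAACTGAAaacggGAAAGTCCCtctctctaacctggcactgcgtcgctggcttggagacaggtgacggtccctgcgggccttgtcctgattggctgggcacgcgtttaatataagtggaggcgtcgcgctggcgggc
HLA-B: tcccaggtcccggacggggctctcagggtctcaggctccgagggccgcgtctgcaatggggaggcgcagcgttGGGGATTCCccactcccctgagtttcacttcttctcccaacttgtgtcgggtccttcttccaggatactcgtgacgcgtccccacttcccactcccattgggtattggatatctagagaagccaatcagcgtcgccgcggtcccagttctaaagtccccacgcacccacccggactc
HLA-C: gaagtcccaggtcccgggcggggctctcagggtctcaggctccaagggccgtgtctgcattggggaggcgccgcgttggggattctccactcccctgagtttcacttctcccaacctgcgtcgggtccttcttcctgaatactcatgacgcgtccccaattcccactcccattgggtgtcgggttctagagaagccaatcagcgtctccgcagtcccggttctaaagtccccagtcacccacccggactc
TAP2: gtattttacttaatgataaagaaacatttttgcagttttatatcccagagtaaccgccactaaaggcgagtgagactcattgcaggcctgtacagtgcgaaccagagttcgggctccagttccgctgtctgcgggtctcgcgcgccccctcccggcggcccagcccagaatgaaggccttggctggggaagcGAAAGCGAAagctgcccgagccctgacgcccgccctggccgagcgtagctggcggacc

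RefSeq gave such a window for 7 of the 9 members. TAP1 had 2 RefSeq starts, and its window and distances are those of the most upstream one. TAPBP, TAP1 and B2M held both an ISRE core and an NF-κB match. In TAPBP the ISRE match ran from 20 to 6 bases before the start and the NF-κB match from 56 to 47 bases before it. In TAP1 they ran from 133 to 119 and from 72 to 64 bases before the start, and in B2M from 144 to 130 and from 124 to 116 bases before it. HLA-B held an NF-κB match from 177 to 169 bases before the start and no match to GAAANNGAA. TAP2 held an ISRE core from 58 to 50 bases before the start and no NF-κB match. HLA-F held an ISRE core only, and HLA-C held neither set of letters, although its window was 89% identical to that of HLA-B over 254 aligned columns. Among 35116 promoters of the same length, 6.88% held the ISRE core and 9.27% an NF-κB match. CCAAT, the letters that NF-Y binds, was found in 5 of the 7 windows and in 32% of all promoters. TGACG, the core of the cyclic AMP response element (CRE), was found in 4 of the 7 and in 21.2% of all, and TTCNNNGAA, the letters of the GAS element, in 0 of the 7 and in 6.57% of all. A match of letters is a description and shows no binding.

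**Figure D1:**
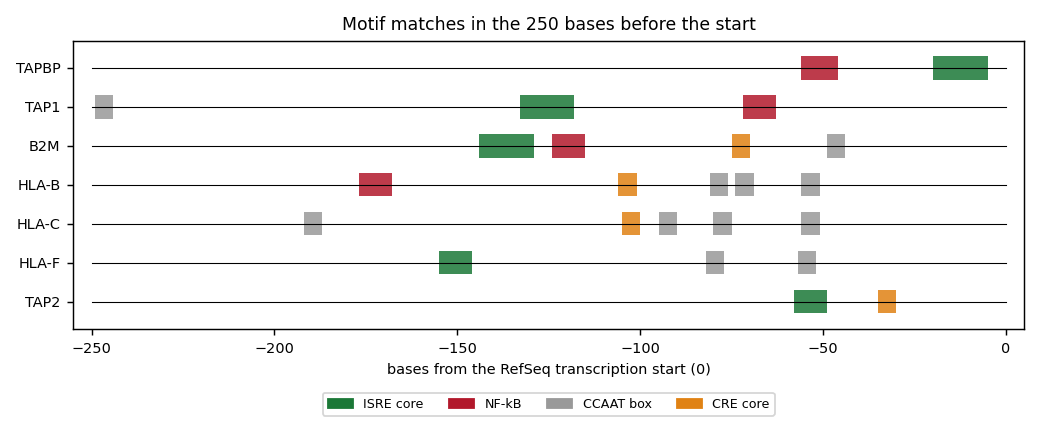
Positions of motif matches in the 250 bases before the RefSeq start of 7 members; the horizontal axis gives the distance from the start in bases, and each coloured box is 1 merged match. TAPBP, TAP1 and B2M carry both the ISRE core (green) and the NF-κB letters (red), and HLA-C matches neither set of letters searched.

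The first comparison asked how the members answered TNFα in each line. TAPBP and TAP1 rose in both lines, TAPBP about 3-fold and TAP1 about 2-fold. HLA-B passed the test in DKD cells and B2M in CTL cells. HLA-C, HLA-E, TAP2 and NLRC5 passed in neither line. In DKD cells 3 of 8 members tested were called higher and none lower, against 1.54% of all 16118 genes called higher and 0.254% lower, and in CTL cells 3 of 8 were called higher and none lower, against 1.9% of all genes higher and 0.726% lower. Calls here and below rest on edgeR's quasi-likelihood test, with the adjusted p under 0.05. The median log2 fold change of the 8 was 0.63 in DKD cells, against -0.01 over all genes tested, and 0.70 in CTL cells, against 0.00. Treated libraries all lay above untreated ones for 6 of the 8 in DKD cells, as for 7.03% of all genes, and for 5 of the 8 in CTL cells, as for 13.4% of all genes. With the replicate number as a block, since same-numbered libraries deviated together, 4 members were called higher in DKD cells (5.55% of all genes) and 5 in CTL cells (7.94% of all genes). In bulk RNA, fewer cells of a kind and less RNA per cell cannot be told apart.

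TAPBP had 165, 145 and 175 CPM in DKD cells with TNFα, against 50.1, 51.4 and 55.4 CPM in untreated DKD cells. Its values in CTL cells were 169, 160 and 174 CPM with TNFα, against 56.2, 56.0 and 59.6 CPM untreated. The lowest treated library of either line lay above every untreated one. TAPBP was 3.10-fold higher in DKD cells (log2 fold change 1.63, SE 0.08, adjusted p = 1.53e-05) and 2.93-fold higher in CTL cells (1.55, SE 0.08, adjusted p = 1.42e-05). Both calls held in every fit that left out 1 of the 12 libraries.

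TAP1 encodes the first chain of the peptide pump. It had 49.8, 52.3 and 55.4 CPM in DKD cells with TNFα, against 27.0, 28.7 and 27.0 CPM in untreated DKD cells. In CTL cells it had 44.1, 45.6 and 47.2 CPM with TNFα, against 23.9, 22.6 and 20.8 CPM untreated. The treated and untreated libraries did not overlap in either line. TAP1 was 1.91-fold higher in DKD cells (log2 fold change 0.93, SE 0.08, adjusted p = 3.00e-04) and 2.03-fold higher in CTL cells (1.02, SE 0.08, adjusted p = 1.36e-04), again in every fit that left out a library.

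TAP2 encodes the other chain of the pump. It had 40.3, 37.6 and 38.9 CPM in DKD cells with TNFα, against 37.0, 36.7 and 36.9 CPM in untreated DKD cells. Its values in CTL cells were 45.1, 37.4 and 41.1 CPM with TNFα, against 47.4, 38.5 and 40.1 CPM untreated. The groups overlapped in CTL cells and were separated by a narrow gap in DKD cells. The difference on the log2 scale was 0.08 in DKD cells (95% interval -0.15 to 0.31, adjusted p = 0.949) and -0.03 in CTL cells (-0.26 to 0.20, adjusted p = 0.966), and the sign in CTL cells turned when single libraries were left out.

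B2M, the light chain shared by all class I molecules, had 246, 283 and 257 CPM in DKD cells with TNFα, against 204, 217 and 205 CPM in untreated DKD cells. In CTL cells it had 305, 315 and 294 CPM with TNFα, against 254, 214 and 240 CPM untreated. Treated libraries lay above untreated ones in both lines. The log2 fold change was 0.33 in DKD cells (SE 0.08, adjusted p = 0.0759, and 0.0272 with the replicate block) and 0.37 in CTL cells (SE 0.08, adjusted p = 0.0355). The call in CTL cells was lost in 10 of the 12 fits that left out a library, with adjusted p-values of 0.0513 to 0.209. It remained without DKD replicate 1, treated or untreated, and was lost without the filter on low counts (adjusted p = 0.0797).

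HLA-B, a classical heavy chain that shows peptides to CD8 T cells, was read at low counts. It had 157, 121 and 143 counts in DKD cells with TNFα, against 78, 41 and 60 counts in untreated DKD cells. Its values in CTL cells were 93, 81 and 102 counts with TNFα, against 42, 28 and 46 counts untreated. Each treated group lay above its untreated group. The difference on the log2 scale was 1.19 in DKD cells (SE 0.26, adjusted p = 0.0498, and 0.00413 with the block) and 1.14 in CTL cells (SE 0.27, adjusted p = 0.0512, and 0.00550 with the block). The call in DKD cells lay at the threshold: it held in 1 of 12 fits that left out a library, the one without untreated DKD replicate 1 (adjusted p = 0.00943), and in the other 11 the adjusted p ran between 0.0770 and 0.190. It was also lost in the 2 DKD groups alone (adjusted p = 0.385) and without the filter on low counts (0.0654).

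HLA-C, the other classical heavy chain in the set, had 137, 101 and 119 CPM in DKD cells with TNFα, against 134, 83.6 and 89.8 CPM in untreated DKD cells. In CTL cells it had 110, 102 and 114 CPM with TNFα, against 108, 78.4 and 89.3 CPM untreated. The groups overlapped in both lines, and the untreated replicate 1 library was the highest of its group in each. HLA-C was higher with TNFα in all 6 same-numbered pairs of libraries, and the test with the replicate block did not call it (adjusted p = 0.249 in DKD cells and 0.143 in CTL cells). The log2 fold change was 0.21 in DKD cells (95% interval -0.21 to 0.64, adjusted p = 0.872) and 0.24 in CTL cells (-0.18 to 0.66, adjusted p = 0.663).

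HLA-E, whose product is read by receptors of natural killer cells, had 69.8, 72.3 and 80.5 CPM in DKD cells with TNFα, against 78.2, 68.4 and 68.1 CPM in untreated DKD cells. Its values in CTL cells were 61.2, 76.6 and 77.6 CPM with TNFα, against 61.8, 65.0 and 65.1 CPM untreated. Neither line separated its groups. The difference on the log2 scale was 0.05 in DKD cells (95% interval -0.19 to 0.29, adjusted p = 0.975) and 0.17 in CTL cells (-0.08 to 0.41, adjusted p = 0.559).

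HLA-F, a heavy chain found mostly inside the cell, was close to the limit of detection. It had 4, 8 and 5 counts in DKD cells with TNFα, against 5, 9 and 7 counts in untreated DKD cells, and 2, 5 and 4 counts in CTL cells with TNFα, against 5, 1 and 5 counts in untreated CTL cells. The counts overlapped between treated and untreated libraries, and no difference was detectable at this depth.

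NLRC5, the transactivator of class I genes, had 9, 8 and 12 counts in DKD cells with TNFα, against 4, 5 and 5 counts in untreated DKD cells. In CTL cells it had 36, 15 and 24 counts with TNFα, against 11, 6 and 11 counts untreated. Treated libraries were higher in both lines, with a wide spread among the treated CTL libraries. The log2 fold change was 1.01 in DKD cells (SE 0.40, adjusted p = 0.389) and 1.31 in CTL cells (SE 0.35, adjusted p = 0.0851). With the replicate block the difference in CTL cells passed the test (adjusted p = 0.0267).

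**Figure D2:**
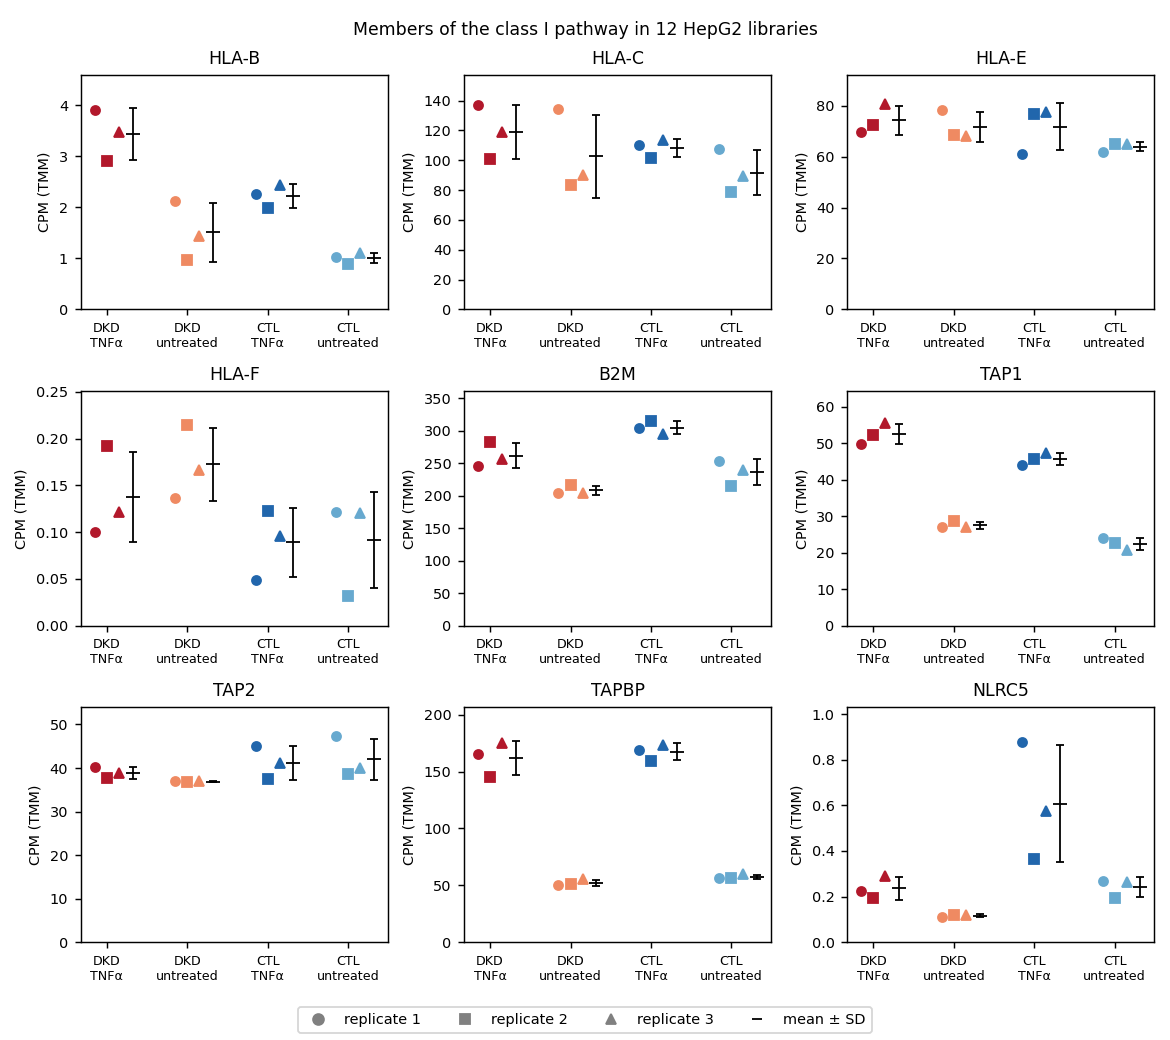
Level of each of the 9 members in every library, in CPM (TMM-scaled, vertical axis from 0), by group; each symbol is 1 library, its shape the replicate number, and the black bar the mean ± SD of 3. TAPBP and TAP1 separate treated from untreated libraries in both lines, while the symbols of HLA-E overlap.

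Setting members against each other inside a library shows unequal change without any scaling between libraries. These ratios were chosen with the values known, so they are given as a description, with no test. TAP1 had 1.35 ± 0.10 counts per count of TAP2 in DKD cells with TNFα and 0.748 ± 0.030 in untreated DKD cells, and 1.11 ± 0.12 in CTL cells with TNFα and 0.536 ± 0.044 in untreated CTL cells (SD, n = 3 each). TAPBP had 3.09 ± 0.28 counts per count of TAP1 in DKD cells with TNFα and 1.90 ± 0.13 in untreated DKD cells, and 3.67 ± 0.17 in CTL cells with TNFα and 2.56 ± 0.27 in untreated CTL cells. HLA-B had 0.0289 ± 0.0002 counts per count of HLA-C in DKD cells with TNFα and 0.0145 ± 0.0024 in untreated DKD cells, and 0.0206 ± 0.0010 in CTL cells with TNFα and 0.0111 ± 0.0015 in untreated CTL cells. Each of the 3 ratios was higher with TNFα in both lines without overlap. The ratio of B2M to HLA-C was 2.25 ± 0.51 in DKD cells with TNFα and 2.13 ± 0.55 in untreated DKD cells, and 2.82 ± 0.26 in CTL cells with TNFα and 2.59 ± 0.20 in untreated CTL cells, and the treated and untreated libraries overlapped.

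**Figure D3:**
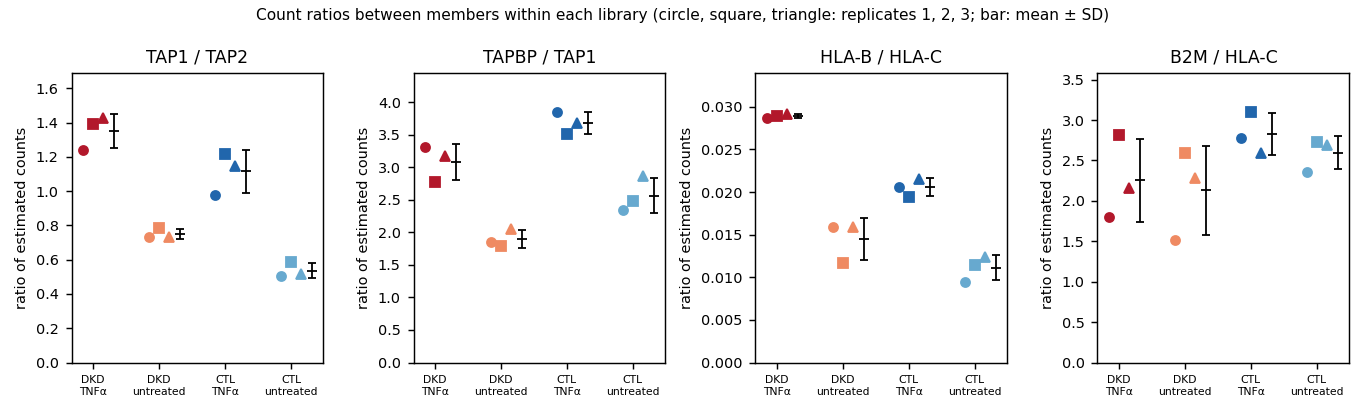
Ratio of estimated counts between 2 members in each library (vertical axes from 0), by group; each symbol is 1 library and the black bar the mean ± SD of 3. The first 3 ratios lie higher in treated than in untreated libraries of the same line, and the ratio of B2M to HLA-C overlaps.

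The second comparison asked whether the members differed between DKD and CTL cells. Without TNFα none of the 8 was called, against 4.98% of all genes. An unadjusted p under 0.05 was found for 3 (TAP1, B2M and NLRC5), and for 2743 of all 16118 genes. DESeq2 called 1, TAP1. With TNFα 1 of 8 was called, NLRC5, which was lower in DKD cells, against 6.24% of all genes called either way and 2.3% called lower; DESeq2 called none. The median of the 8 log2 fold changes was -0.00 with TNFα, against 0.00 over all genes, and 0.02 untreated, against 0.01. With TNFα the libraries of the lines did not overlap for 2 members higher in DKD cells (13.2% of all genes) and 2 lower (12.1%). Untreated, they did not overlap for 2 of the 8 higher (11.3%) and 3 lower (10.4%). Without both replicate 1 libraries of DKD cells no member was called in either condition, while with TNFα over untreated 3 were called in DKD cells and 4 in CTL cells.

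NLRC5 averaged 0.236 ± 0.051 CPM in DKD cells with TNFα and 0.607 ± 0.257 CPM in CTL cells with TNFα (SD, n = 3 each). Untreated, it averaged 0.116 ± 0.006 CPM in DKD cells and 0.241 ± 0.042 CPM in CTL cells. The libraries of DKD and CTL cells did not overlap in either condition. The log2 fold change with TNFα was -1.35 (SE 0.35, adjusted p = 0.0445, and 0.0168 with the block, with which 8.79% of all genes were called lower), a level of 0.392 times that in CTL cells. Untreated it was -1.05 (SE 0.40, adjusted p = 0.2005). The call with TNFα rests on few counts, at most 36 in a library, and was lost in 10 of the 12 fits that left out a library. Without treated CTL replicate 1 the log2 fold change was -0.99 (adjusted p = 0.181), and the adjusted p of the other 9 ran from 0.0644 to 0.162. It remained without treated CTL replicate 2 and without untreated DKD replicate 1. Without both replicate 1 libraries of DKD cells it was -1.31 (adjusted p = 0.0973). The call was also lost with DESeq2 (adjusted p = 0.0730), without the filter on low counts (0.0851), in the 2 groups alone (0.121) and in replicates 2 and 3 only, where the log2 fold change was -0.95 (0.189).

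TAP1 was 1.23-fold higher in untreated DKD cells than in untreated CTL cells (log2 fold change 0.30, SE 0.08), and the groups, given above, did not overlap. This difference missed the threshold (adjusted p = 0.0740) and passed it with the replicate block (adjusted p = 0.0257), with which 9.17% of all genes were called higher. With TNFα the log2 fold change of TAP1 was 0.20 (adjusted p = 0.212, and 0.0878 with the block).

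HLA-B stood at 3.92, 2.91 and 3.48 CPM in DKD cells with TNFα, against 2.27, 1.98 and 2.45 CPM in CTL cells with TNFα. The libraries did not overlap. The difference on the log2 scale was 0.62 (SE 0.26, adjusted p = 0.221), and with the block it was 0.61 (adjusted p = 0.0472), with which 10.6% of all genes were called higher. Untreated, the values were 2.13, 0.975 and 1.43 CPM in DKD cells and 1.02, 0.897 and 1.10 CPM in CTL cells, with overlap (log2 fold change 0.58, adjusted p = 0.308).

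B2M lay lower in DKD cells with TNFα than in CTL cells with TNFα in every library (log2 fold change -0.22, SE 0.08, adjusted p = 0.153). Untreated, B2M averaged 209 ± 7.10 CPM in DKD cells and 236 ± 20.0 CPM in CTL cells, and the libraries overlapped. With the block its log2 fold change untreated was -0.18 (adjusted p = 0.141). The remaining members were TAPBP, with log2 fold changes of -0.05 with TNFα and -0.13 untreated, TAP2 with -0.08 and -0.19, HLA-C with 0.13 and 0.16, and HLA-E with 0.05 and 0.16. Their adjusted p-values ran from 0.383 to 0.901. The value of HLA-C untreated turned to -0.08 without untreated DKD replicate 1. HLA-F summed to 17 counts in DKD cells with TNFα and 11 counts in CTL cells with TNFα, and to 21 counts in untreated DKD cells and 11 counts in untreated CTL cells.

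**Figure D4:**
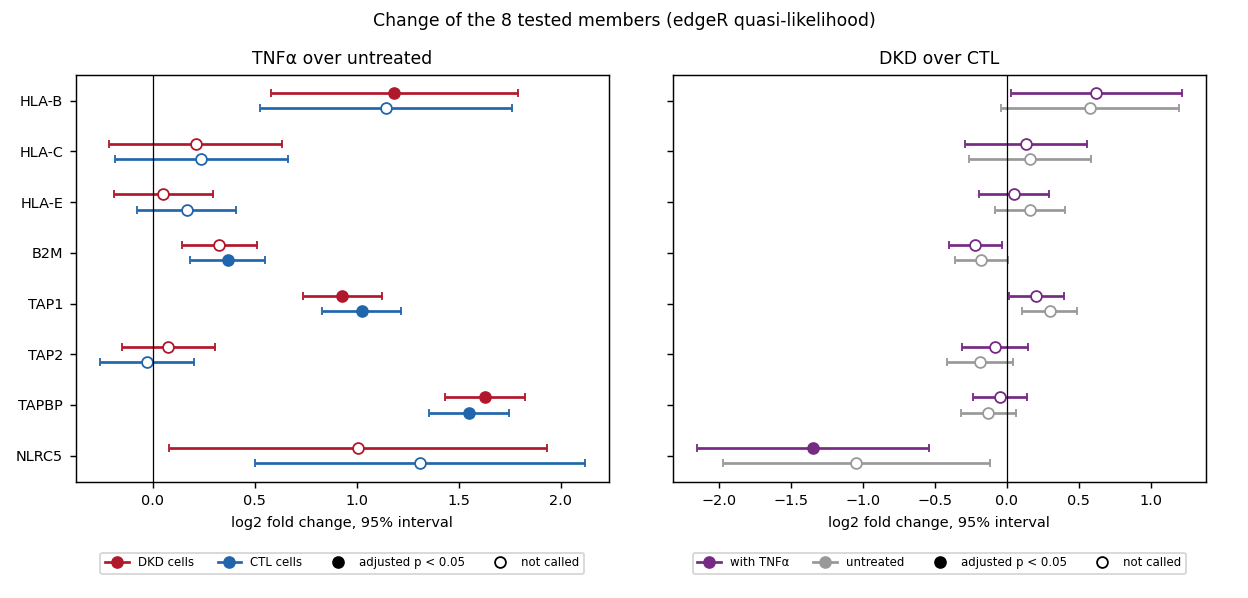
Log2 fold change with its 95% interval for the 8 members tested, for TNFα over untreated in each line (left) and for DKD over CTL in each condition (right); filled points have an adjusted p under 0.05. TAPBP and TAP1 lie clear of 0 in both lines on the left, and NLRC5 with TNFα is the filled point on the right.

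The third comparison asked whether the answer to TNFα differed between DKD and CTL cells, tested as the interaction. No member was called, and none of all 16118 genes, or 0%, was called by edgeR, where 184 had an unadjusted p under 0.05; DESeq2 called 5 genes and no member. The difference in log2 fold change, DKD minus CTL, was 0.08 for TAPBP (95% interval -0.19 to 0.35) and -0.09 for TAP1 (-0.37 to 0.18). It was -0.04 for B2M (-0.30 to 0.22), 0.11 for TAP2 (-0.22 to 0.43), -0.11 for HLA-E (-0.46 to 0.23) and -0.03 for HLA-C (-0.63 to 0.57). For the low members the interval was wide, at 0.04 for HLA-B (-0.83 to 0.92) and -0.30 for NLRC5 (-1.59 to 0.99). All 8 adjusted p-values were 1, which does not show that the lines answered alike.

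Around the members, the other genes of the pathway were read as lists. Of 9 genes of peptide supply, 6 were called higher with TNFα in DKD cells, against 1.54% of all genes, and 4 in CTL cells, against 1.9%. With the replicate block 7 were called in each line, against 5.55% of all genes in DKD cells and 7.94% in CTL cells. PSMB10, an immunoproteasome subunit, and PSME3, a proteasome activator subunit, were called in neither line, also with the block. UBD, a ubiquitin-like modifier that sends proteins to the proteasome, averaged 301 ± 56.4 CPM in DKD cells with TNFα and 10.3 ± 4.91 CPM in untreated DKD cells (SD, n = 3 each). In CTL cells it averaged 225 ± 36.7 CPM with TNFα and 3.43 ± 1.55 CPM untreated. The log2 fold change of UBD was 4.87 in DKD cells and 6.05 in CTL cells. PSMB9, the immunoproteasome subunit that neighbours TAP1, rose by 1.48 on the log2 scale in DKD cells (adjusted p = 0.00720) and by 1.20 in CTL cells (adjusted p = 0.0193). The counting is not stated to use strand, so reads from the overlap of PSMB9 and TAP1 could fall to either. The trimming peptidases of the endoplasmic reticulum rose too, ERAP1 by 0.82 in DKD cells and 0.71 in CTL cells and ERAP2 by 1.12 in DKD cells and 0.86 in CTL cells.

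ERAP2 also differed between the lines. It averaged 52.7 ± 1.79 CPM in DKD cells with TNFα and 80.4 ± 3.91 CPM in CTL cells with TNFα, and 24.3 ± 3.57 CPM in untreated DKD cells and 44.3 ± 3.90 CPM in untreated CTL cells. It was lower in DKD cells both with TNFα (log2 fold change -0.61, adjusted p = 0.00680) and without (-0.87, adjusted p = 0.00122). Untreated, ERAP1 was lower as well (-0.38, adjusted p = 0.0164) and UBD higher (1.60, adjusted p = 0.0493), so that of the 9 genes 3 were called, against 4.98% of all genes. The block added PSME3, which was lower (-0.26, adjusted p = 0.0377 with the block). With the block 1 of the 9 was called higher, against 9.17% of all genes, and 3 were called lower. Either way, the block called 2657 of all 16118 genes in this comparison. With TNFα, 1 of the 9 was lower, ERAP2, against 2.3% of all genes, and 3 with the block, against 8.79%.

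Of 5 chaperones and editors of loading, TAPBPL alone was called with TNFα, and it was higher in both lines. Of all genes, 1.54% were called higher in DKD cells and 1.9% in CTL cells. TAPBPL, a relative of tapasin that edits peptides, averaged 7.42 ± 0.507 CPM in DKD cells with TNFα and 3.80 ± 0.346 CPM in untreated DKD cells, and 7.33 ± 0.756 CPM in CTL cells with TNFα and 4.24 ± 0.604 CPM in untreated CTL cells (SD, n = 3 each). Its log2 fold change was 0.97 in DKD cells (adjusted p = 0.00745) and 0.79 in CTL cells (adjusted p = 0.0193). CALR, CANX, PDIA3 and HSPA5, the general folding helpers of the list, were not called. None of the 5 was called between DKD and CTL cells without the replicate block. With it, CALR (log2 fold change -0.39, adjusted p = 0.0102) and CANX (-0.18, adjusted p = 0.0411) were called lower in untreated DKD cells. In this comparison the block called 2657 of all 16118 genes either way, and 1478 of them higher. Under TNFα the block called none of the 5 between the lines.

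Of 19 tested factors that bind class I promoters, 4 were called higher with TNFα in DKD cells (1.54% of all genes) and 5 in CTL cells (1.9%), none lower. With the block 6 were called higher in DKD cells (5.55%) and 7 in CTL cells (7.94%). RELB, an NF-κB subunit, averaged 31.8 ± 7.90 CPM in DKD cells with TNFα and 4.58 ± 0.231 CPM in untreated DKD cells (log2 fold change 2.79), and 32.2 ± 5.62 CPM in CTL cells with TNFα and 3.27 ± 0.735 CPM in untreated CTL cells (3.30). NFKB2, its partner, rose by 2.00 on the log2 scale in DKD cells and by 2.31 in CTL cells. IRF1, which binds the ISRE, rose by 1.17 in DKD cells and by 1.08 in CTL cells.

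**Figure D5:**
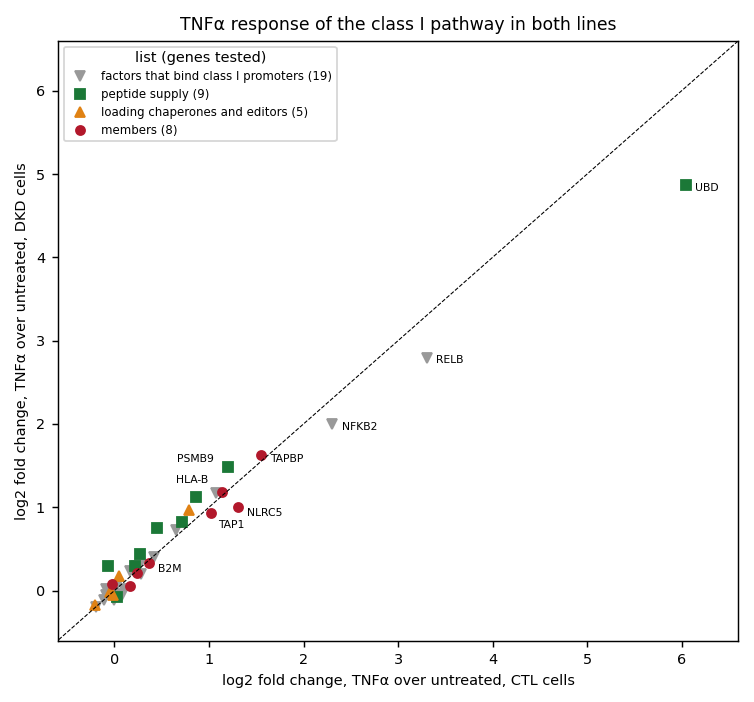
Log2 fold change with TNFα in DKD cells (vertical) against that in CTL cells (horizontal) for the 8 members tested and 3 lists around them; each symbol is 1 gene and the dashed line marks equal change. TAPBP, TAP1, HLA-B and PSMB9 lie near the line at about 1 to 1.6, and UBD, at 4.87 in DKD cells and 6.05 in CTL cells, lies farthest out.

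Markers of other cell types were set beside the members because such cells carry class I. Markers of monocytes and macrophages summed to 7.49 to 14.0 CPM in DKD cells with TNFα, 7.90 to 12.1 CPM in untreated DKD cells, 10.3 to 16.3 CPM in CTL cells with TNFα and 9.51 to 16.2 CPM in untreated CTL cells, and the ranges overlapped. Among them ITGAM, an integrin chain of myeloid cells, averaged 3.35 ± 1.54 CPM in DKD cells with TNFα and 0.0238 ± 0.0413 CPM in untreated DKD cells, and 3.16 ± 0.50 CPM in CTL cells with TNFα and 0.0241 ± 0.0240 CPM in untreated CTL cells (SD, n = 3 each). CD68 made up most of the sums of this list. It averaged 6.30 ± 1.57 CPM in DKD cells with TNFα and 8.41 ± 2.42 CPM in untreated DKD cells. In CTL cells CD68 averaged 8.93 ± 2.54 CPM with TNFα and 11.5 ± 3.18 CPM untreated. CD14 and CSF1R also had lower means with TNFα in both lines, and AIF1 higher ones. The mean of CD163 was higher with TNFα in CTL cells and lower in DKD cells. The part of ITGAM in the member results was not tested. Endothelial markers summed to between 1.38 and 2.49 CPM over the 12 libraries. Under TNFα, fibroblast and stellate cell markers summed to 33.8 to 47.8 CPM in DKD cells and 23.9 to 29.2 CPM in CTL cells. There 1 of 4 tested, ACTA2, was called higher in DKD cells, against 3.94% of all genes. Untreated, the sums of 27.7 to 34.7 CPM in DKD cells and 25.2 to 28.1 CPM in CTL cells overlapped. ACTA2 made up most of these sums, averaging 38.6 CPM in DKD cells and 24.5 CPM in CTL cells under TNFα. The other 5 markers each averaged under 1 CPM. Of these, COL1A1, COL1A2, COL3A1 and DCN had lower means in DKD than in CTL cells under TNFα, and PDGFRB a higher one. Of the hepatocyte markers, with TNFα 5 of 10 were called lower in DKD cells (0.254% of all genes) and 4 in CTL cells (0.726%). In DKD against CTL cells 4 of 10 were called higher with TNFα (3.94% of all genes) and 4 untreated (3.13%).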

How the data were processed

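RNA was measured in 12 libraries of HepG2 cells, 3 in each of 4 groups taken from the titles. The table deposited by the authors holds estimated counts per gene, whole numbers as deposited, so no rounding was needed. The submitters' processing notes name CASAVA 1.7, Salmon 0.14.0, DESeq2 and the builds GRCh38 and hg38. Salmon shares reads between similar transcripts, which can move counts among HLA genes. The deposited normalized table was not used.

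Counts were scaled with TMM factors and filtered with edgeR 4.0.16 (minimum count 10, minimum total 15), which left 16118 of 35984 genes; 10456 had no count. edgeR's quasi-likelihood test was fitted over all 12 libraries with 1 mean per group (8 residual degrees of freedom), with Benjamini-Hochberg adjustment over all genes tested and a call at an adjusted p under 0.05. DESeq2 1.42.0, other filters and scaling, left-out libraries and a replicate block were alternatives. R 4.3.3, limma 3.58.1, Python 3.11.15, Biopython 1.88 and matplotlib 3.10.9 were used. Positions and lengths came from GENCODE (GRCh38) and promoter windows from RefSeq (GRCh38.p14).

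Same-numbered libraries deviated together from their group means: the correlations of pairs ran from 0.193 to 0.409 for TNFα in CTL cells, 0.435 to 0.695 for TNFα in DKD cells, 0.314 to 0.540 for DKD against CTL untreated and 0.262 to 0.505 with TNFα. The pairing comes from these correlations and the titles' numbers, so blocked values stand beside the member results and the list counts they change. Replicates of a group differed beyond sampling noise (a chi-square of 11.4 to 130 for each degree of freedom). The labels do not say that replicates were separate cultures, so the p-values cover the spread between libraries alone, and that may be technical.

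The members and lists were chosen with earlier results of these data known. All 9 members are given, and from each list the genes called in any of 5 contrasts, at most 4, by smallest p. One gene that this rule names is not reported here.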

Additional observations from a re-analysis of the deposited data

How the results depend on the processing

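The calls of TAPBP and TAP1 with TNFα held in both lines under all 19 other settings. Of 750 member log2 fold changes set against their value as reported, 674 kept direction and side of the threshold, 54 crossed the threshold and 22 turned sign. The members called with TNFα numbered 5 in CTL cells with the replicate block, against 3; leaving out 1 library gave 2 to 4 in CTL cells and 2 to 3 in DKD cells. In untreated DKD against CTL cells, 1 member (TAP1) was called with the block, by DESeq2 and in replicates 2 and 3 only, and 0 in any fit that left out 1 library. With TNFα, 2 were called with the block, and 0 without the low-count filter, by DESeq2, in the 2 groups alone, in replicates 2 and 3 only or without both DKD replicate 1 libraries, an alternative added after seeing the data; leaving out 1 library gave 0 to 1. The cause was not tested.

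Genes called for TNFα in DKD cells numbered 651 by DESeq2, 1237 with the block, 41 in the 2 groups alone, 1360 in replicates 2 and 3 only and 466 without both DKD replicate 1 libraries, against 289, and 127 to 357 without 1 library. For TNFα in CTL cells the same settings gave 1024, 2037, 691, 2225 and 1400, against 423, and 149 to 709. For DKD against CTL untreated they gave 1434, 2657, 332, 1983 and 1384, against 803, and 423 to 917. For DKD against CTL with TNFα, DESeq2 called 1752, the block 3133 and replicates 2 and 3 only 2375, against 1005, and single left-out libraries gave 572 to 1545. For the interaction DESeq2 called 5, and left-out libraries 0 to 1.

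Signs turned only for values that were not called. Over left-out libraries the log2 fold change ran from -0.12 to 0.068 for TAP2 with TNFα in CTL cells, from -0.030 to 0.10 for HLA-E with TNFα in DKD cells, from -0.075 to 0.29 for HLA-C in untreated DKD against CTL cells, from -0.061 to 0.11 for HLA-E and -0.11 to 0.021 for TAPBP in DKD against CTL cells with TNFα. For the interaction it ran from -0.19 to 0.36 for HLA-B, -0.16 to 0.20 for HLA-C, -0.095 to 0.029 for B2M and -0.56 to 0.061 for NLRC5. Without both DKD replicate 1 libraries HLA-C in untreated DKD against CTL cells stood at -0.082, and the interaction at 0.11 for HLA-C and 0.000165 for HLA-E. In replicates 2 and 3 only, HLA-E in DKD against CTL cells with TNFα stood at -0.012. Depth limits HLA-F and NLRC5, read at no more than 9 and 36 counts in a library.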

Other observations

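Outside the classical pathway, 2 antigen-presentation genes rose with TNFα in both lines. MR1, which shows bacterial metabolites to T cells, averaged 46.4 ± 5.12 CPM in DKD cells with TNFα and 19.4 ± 1.37 CPM in untreated DKD cells, and 31.3 ± 3.09 CPM in CTL cells with TNFα and 13.7 ± 1.35 CPM in untreated CTL cells (SD, n = 3 each). Without the replicate block it was the only gene called with TNFα among 10 tested class I and class I-like heavy chains outside the members. Of all genes, 1.54% were called higher with TNFα in DKD cells and 1.9% in CTL cells. MR1 was also higher in DKD than in CTL cells, by a log2 fold change of 0.57 with TNFα (edgeR adjusted p = 0.0157) and 0.50 untreated (adjusted p = 0.0375). With the block 1 of the 10, FCGRT, was also called lower with TNFα in CTL cells (log2 fold change -0.26, edgeR adjusted p = 0.0285). In that comparison the block called 2037 of all 16118 genes either way, and 1279 of them higher. MICA and MICB, named after their values were seen, were called lower with the block in DKD than in CTL cells with TNFα (adjusted p = 0.0110 and 0.0496). They are 2 of the 10, against 8.79% of all genes called lower with the block. CD74, the invariant chain of class II, averaged 361 ± 80.0 CPM in DKD cells with TNFα and 151 ± 21.2 CPM in untreated DKD cells, and 358 ± 21.9 CPM in CTL cells with TNFα and 176 ± 6.69 CPM in untreated CTL cells. Without the block it was the only one called with TNFα of 6 tested class II genes. With the block 2 were called higher in CTL cells, against 7.94% of all genes.

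Pseudogenes of the HLA class I family, 12 in the table, summed to 15.4 to 21.3 CPM in DKD cells with TNFα and 9.68 to 11.6 CPM in untreated DKD cells, and to 13.7 to 18.3 CPM in CTL cells with TNFα and 8.95 to 11.5 CPM in untreated CTL cells. Of 6 tested, 2 were called higher with TNFα in each line, against 1.54% of all genes in DKD cells and 1.9% in CTL cells. HLA-J rose by 1.54 on the log2 scale in DKD cells and 1.90 in CTL cells. HLA-K rose by 1.08 in DKD cells and 0.96 in CTL cells. HLA-V averaged 1.03 CPM in DKD cells both with TNFα and untreated. In CTL cells HLA-V averaged 0.794 CPM with TNFα and 0.815 CPM untreated. How many of the pseudogene reads belong to HLA-B or HLA-C was not tested.

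The 5 genes whose profile over the 12 libraries lay nearest to the mean profile of the 8 members, among 11019 genes ranked, were PIEZO2, MOB3C, MGAT4B, HS1BP3 and ICK. Their root mean square differences from it were 0.0950 to 0.103 on the log2 scale. The members themselves lay farther from their mean, at 0.213 for B2M, the nearest, to 0.538 for NLRC5, the farthest. Nearness to this average is therefore not likeness to any single member.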
